A study of Mus musculus with 12 samples.

Results

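The contractile genes of the mammary myoepithelium were followed in mouse mammary organoids treated with rising doses of CHIR99021, an inhibitor of the kinase GSK3 that activates WNT signalling through β-catenin. They are 10 genes named by symbol (Acta2, Actg2, Myh11, Mylk, Cnn1, Tagln, Oxtr, Myocd, Lmod1 and Tpm2) out of 25210 genes in the deposited count table. Each symbol occurred once, and 9 of the 10 passed the filter on low counts, with Myocd below it. Organoids came from virgin female FVB/N mice aged 8 to 11 weeks and were cultured in growth-factor-reduced Matrigel with minimal medium. They received the vehicle dimethyl sulfoxide (DMSO) or CHIR99021 at 1, 1.5 or 3 µM for 7 days. There were 12 libraries: cultures 1, 2 and 3, from 3 animals, each contributed 1 library to each of the 4 groups, and totals ran from 10.1 to 24.5 M counts (M, mega).

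Myoepithelial cells form the outer, basal layer of mammary ducts and alveoli and contract when oxytocin reaches them at suckling. Oxytocin binds the receptor encoded by Oxtr, calcium rises, and the kinase encoded by Mylk phosphorylates myosin light chains so that smooth muscle myosin (Myh11) pulls on smooth muscle actins (Acta2 and Actg2). Calponin (Cnn1), transgelin (Tagln), leiomodin (Lmod1) and β-tropomyosin (Tpm2) bind the actin filament, and many of these genes are controlled by serum response factor (SRF) and its cofactors, of which myocardin (Myocd) is the one restricted to muscle. The comparison asks how this contractile programme behaves as WNT signalling is raised. The organoids are bulk samples, so fewer cells of a type and less RNA per cell cannot be told apart.

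Promoter windows from RefSeq (GRCm38.p6), 250 bases before to 50 bases after a gene's start, were matched by symbol for 6 members (Acta2, Cnn1, Lmod1, Mylk, Oxtr and Tpm2). The windows are shown for Acta2, the member with the highest level per length, Oxtr, the member that fell furthest at 3 µM, and Tpm2, which did not fall at the highest dose. Capitals mark matches to a CArG box, the element bound by SRF, allowing 1 inner G or C, or to CATTCC, the core bound by TEAD factors, each searched on both strands.
Acta2, chr19:34255324-34255623, minus strand: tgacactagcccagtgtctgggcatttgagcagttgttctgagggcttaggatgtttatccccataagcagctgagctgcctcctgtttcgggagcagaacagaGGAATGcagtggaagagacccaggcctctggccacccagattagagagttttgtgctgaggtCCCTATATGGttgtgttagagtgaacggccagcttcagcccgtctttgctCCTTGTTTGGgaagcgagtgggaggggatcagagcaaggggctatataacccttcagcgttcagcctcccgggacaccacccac
Oxtr, chr6:112489776-112490075, minus strand: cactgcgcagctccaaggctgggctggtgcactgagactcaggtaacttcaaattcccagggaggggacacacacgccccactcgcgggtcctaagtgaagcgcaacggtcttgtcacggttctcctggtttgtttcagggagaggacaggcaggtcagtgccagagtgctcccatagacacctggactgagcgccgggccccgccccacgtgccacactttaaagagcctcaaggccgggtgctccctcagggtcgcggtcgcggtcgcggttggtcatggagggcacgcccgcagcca
Tpm2, chr4:43523505-43523804, minus strand: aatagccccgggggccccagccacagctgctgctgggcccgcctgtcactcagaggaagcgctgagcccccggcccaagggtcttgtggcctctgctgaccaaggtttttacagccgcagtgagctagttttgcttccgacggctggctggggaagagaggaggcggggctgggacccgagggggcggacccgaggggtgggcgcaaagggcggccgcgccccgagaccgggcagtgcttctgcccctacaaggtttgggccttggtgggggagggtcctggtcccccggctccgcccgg
The Acta2 window held 2 CArG boxes with 1 inner G or C, at −84 to −75 and at −34 to −25 from the start site, and 1 CATTCC match on the opposite strand at −146 to −141, with no overlap between them. Lmod1 held CATTCC at −130 to −125 on the opposite strand, and Mylk held it at −158 to −153. The Mylk window begins at 34784700 on chromosome 16, inside the gene as the deposited table places it (34745210 to 35002420). No match was found in these windows of Oxtr, Tpm2 or Cnn1, and none of the 6 held CTTTGA, the core bound by TCF and LEF factors, or a CArG box without the inner G or C. Of 32851 windows of the same length, 8.50% held the CArG box with 1 inner G or C, 1.63% the strict one, 14.7% CATTCC and 16.0% CTTTGA.

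In DMSO the members spanned a wide range when counts per M counts (CPM, on TMM-scaled library sizes) were divided by exonic length in kilobases. Acta2 stood highest, at 148 ± 41.0 CPM per kb (SD, n = 3), followed by Tagln at 56.2 ± 7.30, Oxtr at 39.0 ± 5.39 and Tpm2 at 28.4 ± 16.5. Cnn1 (12.4 ± 4.76), Myh11 (10.5 ± 3.86), Lmod1 (7.90 ± 1.75) and Mylk (7.34 ± 2.17) formed a lower group whose neighbours lay within 1 SD of each other. Actg2, the enteric smooth muscle actin, was far lower at 1.08 ± 0.789, and Myocd stood at 0.0276 ± 0.00954 CPM per kb. At 3 µM the order had changed: Tpm2 led at 38.5 ± 5.24 CPM per kb, ahead of Acta2 at 6.36 ± 3.24, Tagln at 2.33 ± 0.405 and Lmod1 at 1.18 ± 0.141.

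**Figure D1:**
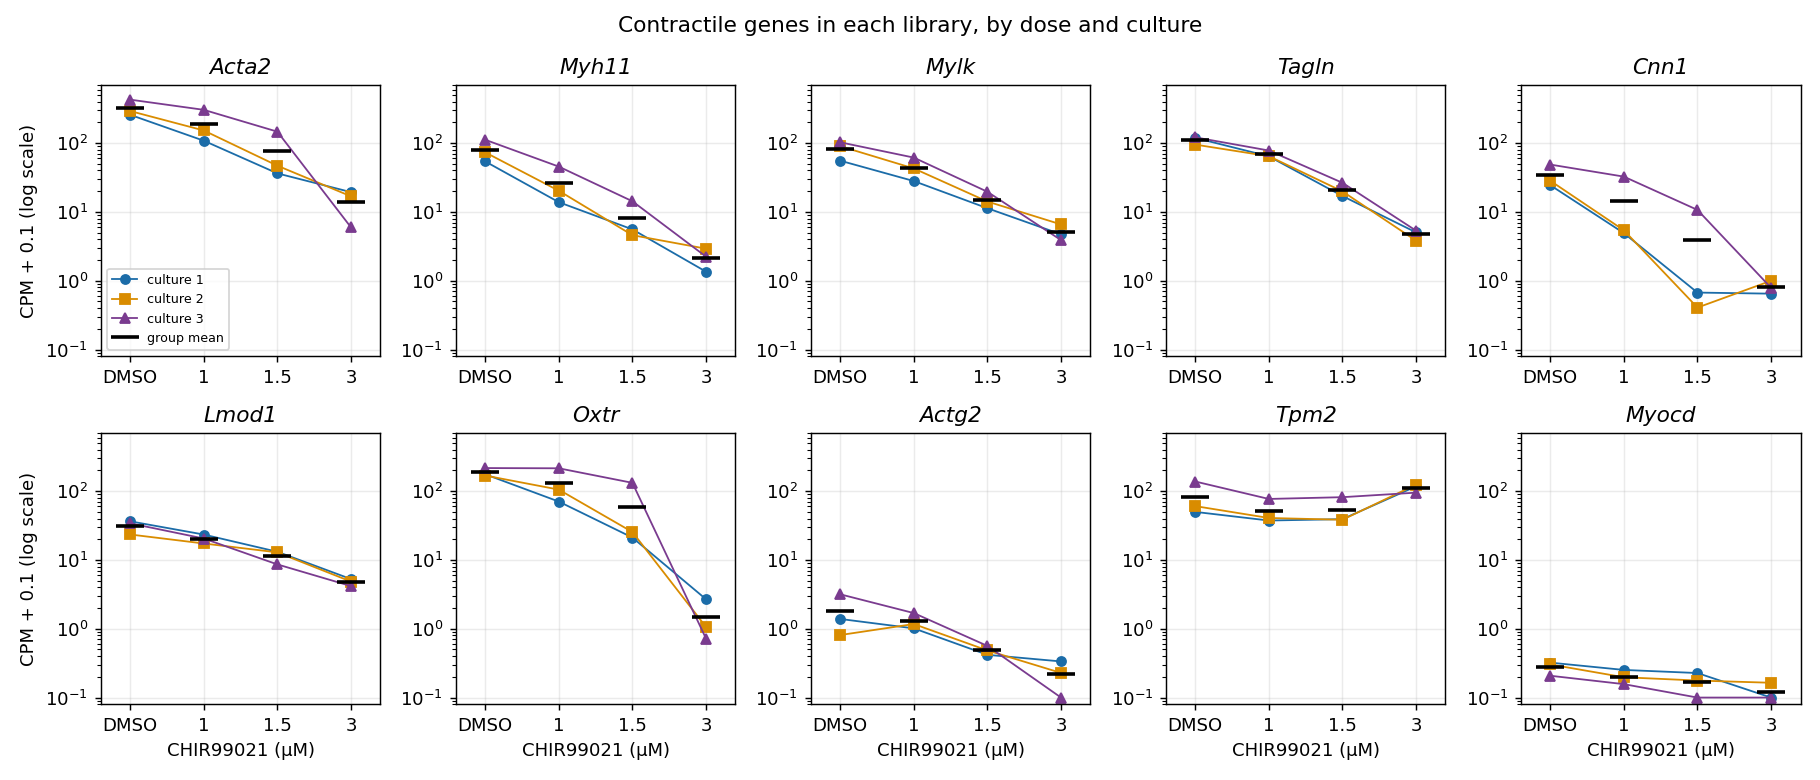
Level of each contractile gene in each of the 12 libraries, as CPM plus 0.1 on a log axis, against the CHIR99021 dose at even spacing; coloured lines join the 4 libraries of a culture and black bars are group means. Tpm2 ends above its start in cultures 1 and 2 (235% and 205% of DMSO) and at 68.8% in culture 3, and culture 3 lies above cultures 1 and 2 at 1.5 µM for every gene except Lmod1 and Myocd.

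Smooth muscle actin and myosin transcripts fell at 1.5 and 3 µM. Acta2 (ENSMUSG00000035783, chromosome 19, 34241090 to 34255336, minus strand) measured 258, 292 and 428 CPM in DMSO in cultures 1, 2 and 3, 108, 152 and 304 at 1 µM, 36.2, 46.8 and 146 at 1.5 µM, and 19.3, 16.7 and 5.86 at 3 µM. Every culture was lower at each step, and the DMSO libraries lay above all libraries at 1.5 and 3 µM but overlapped those at 1 µM. Against DMSO its log2 fold change was −0.79 ± 0.594 at 1 µM (SE, adjusted p = 0.670), −2.09 ± 0.615 at 1.5 µM (adjusted p = 0.0301) and −4.55 ± 0.691 at 3 µM (adjusted p = 0.000359, edgeR's quasi-likelihood test). Within cultures 1, 2 and 3, Acta2 stood at 14%, 16% and 34% of its own DMSO level at 1.5 µM. In this fit, which does not pair the libraries by animal, the call at 1.5 µM was lost when some single libraries were left out. The adjusted p was 0.102 without culture 1 at 1.5 µM, 0.105 without culture 2 at that dose, and 0.0632 and 0.0769 without cultures 2 and 3 in DMSO. With the animal as a block, 8 of the 9 tested members were called lower at 1.5 µM, beside 24.3% of all genes.

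Myh11 (ENSMUSG00000018830, chromosome 16, 14194527 to 14291408, minus strand) measured 54.1, 73.3 and 112 CPM in DMSO, 13.8, 20.2 and 45.4 at 1 µM, 5.47, 4.49 and 14.2 at 1.5 µM, and 1.25, 2.82 and 2.14 at 3 µM. All DMSO libraries lay above all treated ones at every dose. Its log2 fold changes were −1.59 ± 0.539, −3.31 ± 0.580 and −5.25 ± 0.653 at 1, 1.5 and 3 µM, with adjusted p-values of 0.288, 0.00296 and 0.000103 (edgeR). With the animal as a block, the 1 µM value was also called (adjusted p = 0.0136).

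Actg2 (ENSMUSG00000059430, chromosome 6, 83512905 to 83536265, minus strand) had few reads, with 29, 7 and 57 counts in DMSO, 18, 22 and 28 at 1 µM, 5, 10 and 8 at 1.5 µM, and 3, 2 and 0 at 3 µM. In CPM the DMSO range was 0.710 to 3.07, above the range at 1.5 µM (0.318 to 0.463) and at 3 µM (0 to 0.235). It fell by 2.12 on the log2 scale at 1.5 µM (SE 0.642, adjusted p = 0.0332) and by 3.79 at 3 µM (SE 0.767, adjusted p = 0.00193). In this fit, which does not pair the libraries by animal, the call at 1.5 µM was lost without culture 3 in DMSO (adjusted p = 0.137). It was also lost without any one culture at 1.5 µM (0.110, 0.102 and 0.0616 for cultures 1, 2 and 3), and without culture 2 at 1 µM (0.0539). The Acta2 and Actg2 transcripts shared 0 exact stretches of 50 bases, while 7 of 2146 such stretches of Acta2 (0.326%) also occur in Actg1.

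The genes of the activating kinase and of most filament-binding proteins also fell at 3 µM. Mylk (ENSMUSG00000022836, chromosome 16, 34745210 to 35002420, plus strand) measured 55.4, 90.1 and 103 CPM in DMSO, 28.0, 42.7 and 61.4 at 1 µM, 11.2, 14.1 and 19.5 at 1.5 µM, and 4.62, 6.48 and 3.79 at 3 µM. The groups overlapped between DMSO and 1 µM and nowhere else along the series. Its log2 fold changes against DMSO were −0.91 ± 0.334 (adjusted p = 0.325), −2.47 ± 0.352 (adjusted p = 0.00115) and −4.05 ± 0.384 (adjusted p = 2.02e-05). The animal block called the first of these too (0.0386).

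Tagln (ENSMUSG00000032085, chromosome 9, 45929628 to 45936058, minus strand) measured 119, 95.0 and 121 CPM in DMSO, 64.1, 64.4 and 77.9 at 1 µM, 16.9, 19.8 and 26.4 at 1.5 µM, and 4.94, 3.72 and 5.24 at 3 µM. Its groups did not overlap at any step, and its fold changes against DMSO had the smallest SE of the tested members. The log2 fold changes were −0.70 ± 0.179 (adjusted p = 0.148), −2.41 ± 0.189 (adjusted p = 8.40e-05) and −4.59 ± 0.212 (adjusted p = 8.15e-07). The 1 µM value passed in DESeq2 (0.0118) and when the animal was a block (0.0166). Exons of Tagln overlap opposite-strand exons of Gm48529 over 1241 bp and of Pcsk7 over 108 bp, and those of Mylk overlap E130310I04Rik over 548 bp and Gm21691 over 224 bp. Whether the counting used the strand is not given in the sources used here, so a share of these counts is uncertain.

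Lmod1 (ENSMUSG00000048096, chromosome 1, 135324807 to 135368065, plus strand), which nucleates actin filaments in smooth muscle, fell least at 3 µM among the members that fell. Its levels were 36.3, 23.3 and 34.0 CPM in DMSO, 23.3, 17.2 and 20.4 at 1 µM, 13.0, 12.8 and 8.51 at 1.5 µM, and 5.17, 4.75 and 4.07 at 3 µM. The log2 fold changes were −0.62 ± 0.214 (adjusted p = 0.292), −1.45 ± 0.218 (adjusted p = 0.00140) and −2.74 ± 0.232 (adjusted p = 9.68e-06). At 1.5 µM it was lowest in culture 3, the culture in which every other tested member was highest at that dose.

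Cnn1 (ENSMUSG00000001349, chromosome 9, 22099281 to 22109630, plus strand), which damps actin-activated myosin, differed most between cultures 3 and 1 among the tested members. It measured 24.4, 28.3 and 48.7 CPM in DMSO, 4.82, 5.31 and 32.5 at 1 µM, 0.573, 0.307 and 10.6 at 1.5 µM, and 0.548, 0.898 and 0.690 at 3 µM. Cultures 1 and 2 were thus near their lowest level by 1.5 µM, where culture 3 still held 21.8% of its own DMSO level against 2.35% and 1.09%. At 3 µM all 3 libraries were below 1 CPM and the log2 fold change was −5.54 ± 1.38 (adjusted p = 0.00637). At 1.5 µM it was −3.16 ± 1.18 and did not pass (adjusted p = 0.0721), but passed with the block (0.00217) and in DESeq2 (0.0253). It also passed without culture 3 at 1.5 µM (0.00464), the highest library at that dose, whose removal lowers the group mean by construction.

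The oxytocin receptor showed the largest decrease of the tested members at 3 µM, but not at 1 or 1.5 µM. Oxtr (ENSMUSG00000049112, chromosome 6, 112473684 to 112489808, minus strand) measured 176, 168 and 216 CPM in DMSO, 70.4, 105 and 215 at 1 µM, 21.1, 25.3 and 132 at 1.5 µM, and 2.59, 0.962 and 0.621 at 3 µM. Culture 3 kept 99.2% of its DMSO level at 1 µM and 61.0% at 1.5 µM, whereas cultures 1 and 2 kept 12.0% and 15.1% at 1.5 µM. At 3 µM the cultures kept 1.47%, 0.571% and 0.287%, on 33, 15 and 9 counts. The log2 fold change at 3 µM was −7.10 ± 0.941 (adjusted p = 0.000154), and from 1.5 to 3 µM it was −5.45 ± 0.895 (adjusted p = 0.00212). At 1.5 µM against DMSO it was −1.65 ± 0.697 (adjusted p = 0.105), which passed with the block (0.0107) and in DESeq2 (0.0416). It also passed without culture 3 at 1.5 µM (0.00578), the highest library at that dose, whose removal lowers the group mean by construction.

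Tpm2 (ENSMUSG00000028464, chromosome 4, 43514711 to 43523765, minus strand), which lies along the actin filament in muscle and nonmuscle cells, did not follow the others. It measured 49.8, 60.5 and 138 CPM in DMSO, 37.3, 40.6 and 76.9 at 1 µM, 39.1, 38.3 and 81.6 at 1.5 µM, and 117, 124 and 95.0 at 3 µM. Cultures 1 and 2 stood at 235% and 205% of their DMSO level at 3 µM, and culture 3, which began highest, at 68.8%. Neither 1.5 µM (log2 fold change −0.65 ± 0.441, adjusted p = 0.301) nor 3 µM (0.44 ± 0.439, adjusted p = 0.413) passed against DMSO. Without culture 3 in any group both passed, with −0.49 (adjusted p = 0.0163) at 1.5 µM and 1.13 (adjusted p = 0.000252) at 3 µM. That fit leaves out the culture that moved the other way at 3 µM. From 1.5 to 3 µM the change was 1.08 ± 0.444 (adjusted p = 0.0911), which passed with the block (0.00898) and in DESeq2 (0.0366).

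Myocd (ENSMUSG00000020542, chromosome 11, 65176561 to 65269989, minus strand) never exceeded 5 counts in a library and fell below the filter on low counts. Its counts summed over the 3 libraries were 9, 6, 4 and 1 from DMSO through the rising doses, and 3 of the 12 libraries had 0. With no filter its log2 fold change at 3 µM was −2.63 ± 1.1 (SE) and did not pass (adjusted p = 0.0862, edgeR; 0.133 in DESeq2).

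**Figure D2:**
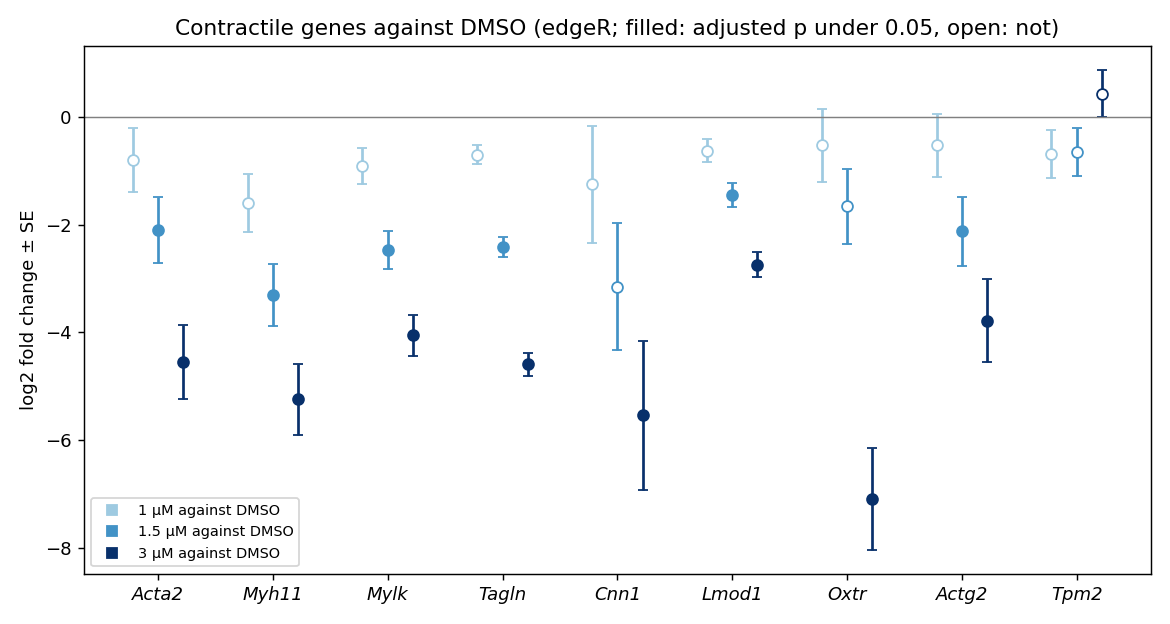
Log2 fold change against DMSO with its SE (edgeR, 3 libraries per group) for the 9 tested members, with lighter to darker blue for 1, 1.5 and 3 µM. Filled points had an adjusted p under 0.05: none at 1 µM, 6 at 1.5 µM and 8 at 3 µM, with Tpm2 alone above 0 at 3 µM.

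Counted together, 0 of 9 tested members were called at 1 µM (edgeR, adjusted p under 0.05), where 0.242% of the 15316 tested genes were called in either direction. At an unadjusted p under 0.05 there were 4 (Lmod1, Myh11, Mylk and Tagln), beside 1798 of the 15316 tested genes. The block called 3 lower, against 3.06% of all genes, and DESeq2 called 1, against 0.591% of the genes in the table. At 1.5 µM 6 members fell, where 11.8% of all genes were called lower, and at 3 µM 8 fell, where 27.7% were. With the block the counts were 8 and 8, against 24.3% and 34.8% of all genes. Without culture 3 in any group, 1 member fell at 1 µM (0.175% of all genes) and 8 at 1.5 µM (14.1%), and 9 were called at 3 µM (58.1% in either direction), among them Tpm2 as the 1 that rose. Without culture 2 in any group the count at 1.5 µM was 2 (0.801% of all genes). The median log2 fold change of the tested members was −0.70, −2.12 and −4.55 at the 3 doses, beside −0.0046, −0.0018 and −0.030 over all tested genes. These comparisons share the DMSO libraries.

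The steps between doses compare treated groups with each other, while the DMSO libraries enter the filter, the scaling and the shared estimate of spread. From 1 to 1.5 µM 2 members fell, Mylk by 1.56 (SE 0.343, adjusted p = 0.0306) and Tagln by 1.71 (SE 0.184, adjusted p = 0.00254) on the log2 scale, where 0.992% of all genes were called lower. The block and DESeq2 each called 4, adding Lmod1 and Myh11, against 10.5% and 2.21% of genes called lower. The Mylk call was lost without culture 2 or 3 at 1 µM (adjusted p = 0.0994 and 0.0973) or culture 1 or 2 at 1.5 µM (0.124 and 0.106). From 1.5 to 3 µM 6 members fell (Acta2, Lmod1, Myh11, Mylk, Oxtr and Tagln), where 12.7% of all genes did. The median change of the 9 was −1.56 for the lower step and −1.94 for the upper one. The Myh11 call in the upper step (adjusted p = 0.0352) was lost without culture 3 at 1.5 µM (0.138) or any one culture at 3 µM (0.110, 0.0634 and 0.0685 for cultures 1, 2 and 3), and that of Acta2 (0.0170) without culture 3 at 1.5 µM (0.0592). Within cultures, Acta2, Lmod1, Myh11, Mylk, Oxtr and Tagln were lower at all 9 steps, Actg2 and Cnn1 at 8 and Tpm2 at 4.

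The groups themselves separated for many members. At 1 µM all 3 libraries lay below all 3 DMSO libraries for Myh11, Tagln and Lmod1, as for 8.27% of all tested genes. At 1.5 µM this held for 8 members, all tested ones except Tpm2, and for 20.7% of all genes. At 3 µM it held for those 8 and, on 1 count in all, for Myocd, which was below the filter, and for 29.9% of the genes tested.

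With treatment held constant, members were called as different between cultures at a share near that of all genes. In a model of group and culture, 3 of 9 were called, Myh11 (adjusted p = 0.0107), Cnn1 (adjusted p = 0.0308) and Mylk (adjusted p = 0.0408), beside 28.8% of all genes. Culture 3 exceeded culture 1 by 1.31 on the log2 scale for Myh11, by 2.31 for Cnn1 and by 0.76 for Mylk. Tpm2 (adjusted p = 0.0518), Tagln (0.0599) and Oxtr (0.101) did not pass. The number called changed with single libraries, with 0 members called without culture 3 at 1 µM and 6 without culture 3 at 3 µM. Only Myh11 was called without culture 1 or 2 at 1 µM or without culture 3 at 1.5 µM. A test of the dose slope between cultures, added after these values had been seen, called 0 of the 15316 genes (edgeR; 1230 had an unadjusted p under 0.05, and the lowest adjusted p among the members was 0.772, for Tpm2). That test fits a single slope over all doses in each culture, so it cannot decide whether a decline came later. The later decline of Oxtr and Cnn1 in culture 3 was not tested and is given as values only.

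Across the 12 libraries the 8 members that fell tracked one another, with Pearson r of log2 CPM (prior count 2) from 0.747 (Lmod1 and Cnn1) to 0.981 (Mylk and Myh11). Tpm2 correlated with them at −0.41 to 0.11. Dose orders all of these libraries, so r describes the shared course and carries no p. Among 11576 tested genes averaging at least 5 CPM, the non-member closest to Acta2 was Kitl (r = 0.991), which encodes stem cell factor, followed by H2afy2 (0.984) and Cbx6 (0.984). The closest to Tagln were Hepacam2 (0.994), Gpr146 (0.992) and Gamt (0.989), to Oxtr Col11a1 (0.985), Myl9 (0.985) and Pdcd4 (0.984), and to Mylk 1600014C10Rik (0.986), Phka1 (0.985) and Gamt (0.985). Myh11 was closest to Tenc1 (0.982), Rasgrp3 (0.979) and Efcab14 (0.976), Lmod1 to Tmem246 (0.987), Rnf130 (0.985) and Mturn (0.984), Cnn1 to Cldn5 (0.977), Cited2 (0.968) and Wdr72 (0.964), and Actg2 to Setbp1 (0.954), Slc35a5 (0.949) and Itm2b (0.948). For Tpm2 they were Il33 (0.951), Sar1a (0.933) and Schip1 (0.928). Il33, an alarmin of epithelial cells, averaged 33.3 CPM in DMSO and 95.9 at 3 µM.

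The rest of the contractile machinery moved unevenly. Of 43 tested genes in that list, 0, 9 and 20 fell and 0, 0 and 7 rose at 1, 1.5 and 3 µM, with medians of −0.12, −0.38 and −0.50. Over all genes 11.8% fell and 15.4% rose at 1.5 µM, and 27.7% fell and 29.9% rose at 3 µM. The largest decrease at 3 µM was Myl9, the regulatory light chain of smooth muscle myosin, from 57.2 ± 14.5 to 0.448 ± 0.117 CPM (SD, n = 3; log2 fold change −6.99, adjusted p = 2.19e-05). The largest increase was Fhl2, a LIM-domain cofactor, from 11.2 ± 4.44 to 75.3 ± 9.90 CPM (2.74, adjusted p = 7.11e-05). Among the 4 most abundant genes, Tpm4, a tropomyosin of nonmuscle cells, rose (1.19, adjusted p = 1.75e-05), the actin crosslinker Flna fell (−0.40, adjusted p = 0.0381), and Actn4 (0.30, adjusted p = 0.182) and Cald1 (−0.29, adjusted p = 0.102) did not pass, but did with the block (0.0474 and 0.0286), and Cald1 also with library size alone (−0.49, adjusted p = 0.0150). The block gave 2 lower at 1 µM, where it called 3.06% of all genes lower. At 1.5 µM it gave 20 lower and 4 higher, beside 3726 and 3420 of the 15316 tested genes. At 3 µM it gave 28 lower and 8 higher, where it called 34.8% of all genes lower and 34.1% higher.

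A list of cytoplasmic actins, nonmuscle myosin chains and 3 tropomyosins shares Tpm1, Tpm4 and Myl6 with the list above. Of its 11 tested genes, 5 rose (Actb, Actg1, Myl12a, Tpm3 and Tpm4) and 1 fell (Tpm1) at 3 µM (median 0.25), beside 29.9% and 27.7% of all genes. At 1 or 1.5 µM 0 were called (edgeR). The block gave 2 lower at 1.5 µM, where it called 24.3% of all genes lower. Actg1 averaged 1001 ± 35.1 CPM in DMSO and 1695 ± 331 at 3 µM, a rise of 0.76 on the log2 scale (adjusted p = 0.00118), and Actb 1039 ± 104 and 1367 ± 122, a rise of 0.40 (adjusted p = 0.0246). Tpm1, an alternatively spliced tropomyosin, fell by 0.59 (adjusted p = 0.00241), and Myh9 did not pass (−0.12, adjusted p = 0.508). The ratio of Acta2 to Actb, as a log2 difference, went from −1.84, −1.92 and −1.35 in the 3 cultures in DMSO to −6.11, −6.48 and −7.74 at 3 µM. Scaling by library size alone moved the median of all genes at 3 µM to −0.23 and the calls over all genes from 4574 higher and 4239 lower to 3395 and 5401. Under it Actb (0.20, adjusted p = 0.172) and Myl12a (0.30, adjusted p = 0.0663) lost their calls, which left 3 higher and 1 lower in this list with a median of 0.048, no gene called at 3 µM in the contractile, actin, SRF, oxytocin or basal lists changed sign, and the 8 members that fell remained called.

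Srf itself did not pass the test at 3 µM. It measured 46.1 ± 5.01 CPM in DMSO and 60.4 ± 11.7 at 3 µM (log2 fold change 0.39, adjusted p = 0.0784), and its cofactor gene Mkl1 49.2 ± 6.78 and 54.2 ± 3.31 (0.14, adjusted p = 0.271). These and Mkl2 were singled out after their values were seen. Mkl2 fell from 122 ± 14.4 to 70.0 ± 7.88 CPM (−0.81, adjusted p = 0.000228). Of 23 tested SRF cofactors and regulators, 5 rose and 9 fell at 3 µM (median −0.30), beside 29.9% and 27.7% of all genes. At 1.5 µM 2 rose and 6 fell, beside 15.4% and 11.8%, and at 1 µM 1 fell, beside 8 of 15316 genes. With the block 2 were higher and 1 lower at 1 µM, beside 390 and 469 of 15316 genes. The gene that fell at 1 µM was Hey2, a Notch target that represses transcription, which went from 34.9 ± 2.99 CPM to 0.489 ± 0.0221 at 3 µM (−6.14, adjusted p = 1.81e-08). Klf4, a zinc finger factor known to repress smooth muscle genes, rose most, from 20.0 ± 4.81 to 318 ± 85.3 CPM (3.99, adjusted p = 5.56e-06). Tead1 (−0.68, adjusted p = 0.000550) and Mef2a (−0.51, adjusted p = 0.000883) fell. Rhoa rose by 0.30 (adjusted p = 0.00281, and 0.262 with library size alone), and Rock2 did not pass (0.06, adjusted p = 0.556).

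Of 14 tested immediate SRF and MRTF targets, 2 rose and 2 fell at 3 µM (median 0.14, and −0.06 with library size alone), beside 29.9% and 27.7% of all genes. Fhl2 and Vcl are also counted in the contractile machinery list. Fhl2 and Junb (1.51, adjusted p = 0.00110) rose, Tgfb1i1 (−2.99, adjusted p = 0.00230) and vinculin, Vcl (−0.50, adjusted p = 0.00927), fell, and Thbs1 (0.06, adjusted p = 0.911) and Egr1 (−0.22, adjusted p = 0.774) did not pass.

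A list of oxytocin receptor signalling genes also holds a vasopressin receptor gene, which is not downstream of Oxtr. Of its 26 tested genes, 12 fell, that receptor gene among them, and 2 rose at 3 µM (median −0.44), beside 27.7% and 29.9% of all genes. At 1.5 µM 8 fell and 2 rose, beside 11.8% and 15.4%, and 0 were called at 1 µM (edgeR). With the block 14 fell and 4 rose at 1.5 µM, beside 3726 and 3420 of 15316 genes. At 1 µM the block gave 1 lower, where it called 3.06% of all genes lower. Rgs5, a regulator of G protein signalling that is also a pericyte marker, fell most (−4.68, adjusted p = 0.00474), and the inositol trisphosphate receptor Itpr3 rose most (1.04, adjusted p = 0.000703). Among the most abundant genes, the calcium pumps Atp2a2 (0.20, adjusted p = 0.0779) and Atp2b1 (−0.36, adjusted p = 0.262), and the calmodulin gene Calm2 (0.29, adjusted p = 0.122) did not pass. With the block Atp2a2 (0.0464) and Calm2 (0.0152) did.

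Basal markers without a contractile role rose while the contractile genes fell. Of 20 tested, 15 rose and 3 fell at 3 µM (median 1.36), beside 29.9% and 27.7% of all genes. At 1.5 µM 6 rose and 1 fell, beside 15.4% and 11.8%, and 0 were called at 1 µM (edgeR). The block gave 2 higher at 1 µM, beside 390 of 15316 genes. Krt14, a keratin of basal cells, went from 1090 ± 397 CPM in DMSO to 15620 ± 6090 at 3 µM (log2 fold change 3.84, adjusted p = 1.86e-05) and its partner Krt5 from 804 ± 278 to 8627 ± 2920 (3.42, adjusted p = 1.62e-05). Krt17 rose by 4.88 (adjusted p = 1.30e-05), Lgals7, a galectin of stratified epithelia, by 5.23 (adjusted p = 1.15e-05), and Trp63, the transcription factor of basal epithelium, named after its value was seen, by 2.68 (adjusted p = 9.51e-05). Sparc, a matrix protein, fell by 2.53 (adjusted p = 0.00577). Per library, the log2 ratio of Acta2 to Krt14 was −2.58, −1.44 and −1.13 in DMSO and −9.85, −10.24 and −10.53 at 3 µM. That of Tpm2 to Krt14 went from −4.95, −3.71 and −2.76 to −7.25, −7.36 and −6.53.

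**Figure D3:**
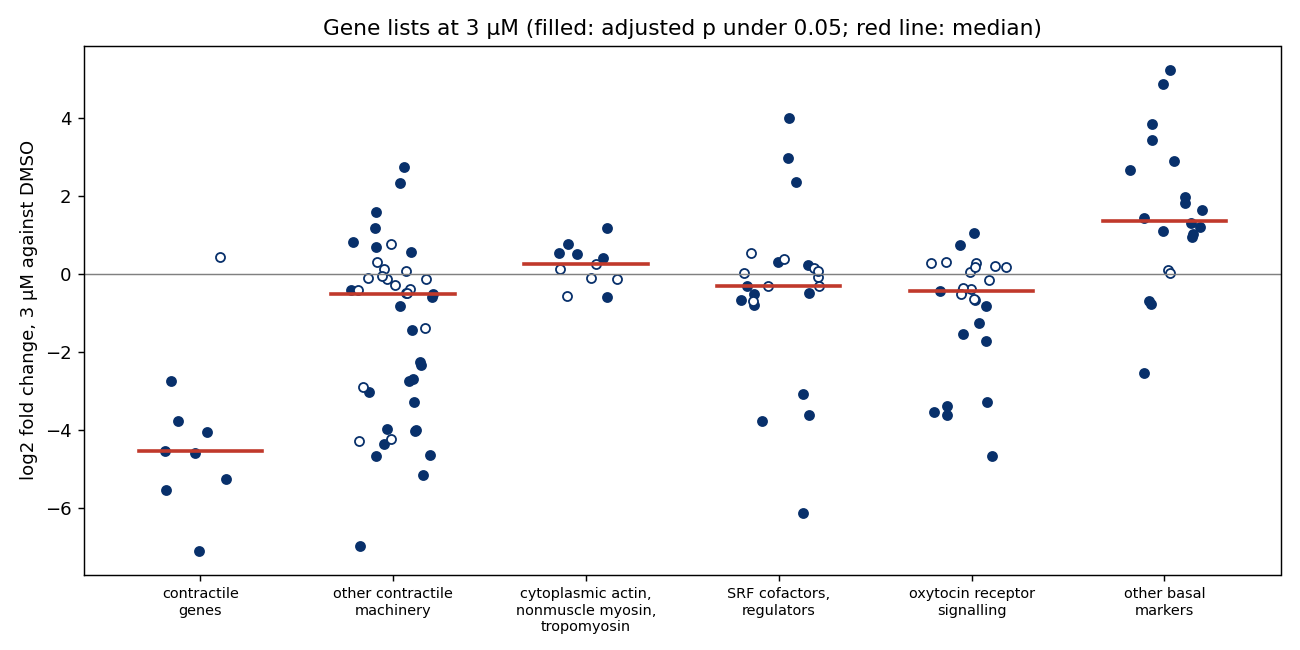
Log2 fold change at 3 µM against DMSO for each tested gene (1 point) of 6 gene lists, with the list's median as a red line; points are spread sideways for legibility. The contractile genes centre at −4.55 with Tpm2 as the 1 gene above 0, and the other basal markers centre at 1.36.

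Markers of other cells moved with dose as well. Of 16 luminal markers, 4 were called higher and 6 lower at 3 µM (median −0.51), near the shares of all genes (29.9% and 27.7%). Krt19 (−2.11, adjusted p = 0.000248) and Krt8 (−0.75, adjusted p = 0.0137) fell, Pgr fell most (−3.28, adjusted p = 0.0134), Areg rose most (4.49, adjusted p = 4.61e-06), and Kit (−0.81, adjusted p = 0.114) and Epcam (0.37, adjusted p = 0.192) did not pass. The summed level of 7 squamous markers, keratins and envelope proteins of stratified epithelium, was 27.7 to 58.4 CPM in DMSO and 5450 to 25160 at 3 µM, and 7 of 7 rose at 3 µM.

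Smooth muscle of vessels and pericytes share several of the contractile genes, and their markers were present. All 12 markers of that list had counts, with Higd1b at 0 in 5 libraries and Pln in 1, and summed to 578 to 1092 CPM in DMSO, 453 to 971 at 1 µM, 306 to 679 at 1.5 µM and 378 to 477 at 3 µM. Of 10 tested, 5 fell at 3 µM, among them Rgs5 and Mcam (−2.36, adjusted p = 4.15e-05), and 7 fell with the block. Ndufa4l2, which is part of the sum, was the 1 that rose (4.27, adjusted p = 0.0217). Notch3 (−0.24, adjusted p = 0.0992) and Pdgfrb (−2.06, adjusted p = 0.0801, with the block 8.90e-06) did not pass. The 10 fibroblast markers summed to 4036 to 24200 CPM in DMSO and 222 to 5310 at 3 µM, where 2 fell (9 with the block). The sums of 8 endothelial markers were 286 to 582 and 33.6 to 102 CPM, and those of 7 macrophage and leukocyte markers 267 to 2561 and 39.6 to 118. Of these, 7 and 6 genes fell, and 8 and 7 with the block. Over all genes 27.7% were called lower and 29.9% higher at 3 µM, and 34.8% lower with the block.

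Striated muscle markers summed to 2.66, 107 and 331 CPM in cultures 1, 2 and 3 in DMSO and to 0.940, 1.86 and 10.1 at 3 µM, with Myh6 at 0 in 9 libraries. Of 7 tested, 4 fell at 3 µM and 7 with the block, beside 27.7% and 34.8% of all genes. Their median log2 fold change was −5.20 (edgeR without the block). Culture 1 had the lowest and culture 3 the highest DMSO sum for striated muscle, fibroblast, pericyte and macrophage markers, while endothelial markers summed to 286, 582 and 480 CPM in cultures 1, 2 and 3. At 3 µM cultures 1, 2 and 3 kept 7.48%, 5.73% and 1.37% of their own DMSO level of Acta2. For Myh11 they kept 2.32%, 3.85% and 1.91%, for Tagln 4.15%, 3.92% and 4.33%, and for Oxtr 1.47%, 0.571% and 0.287%. The part that these other cells had in the decline of the contractile genes was not tested.

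**Figure D4:**
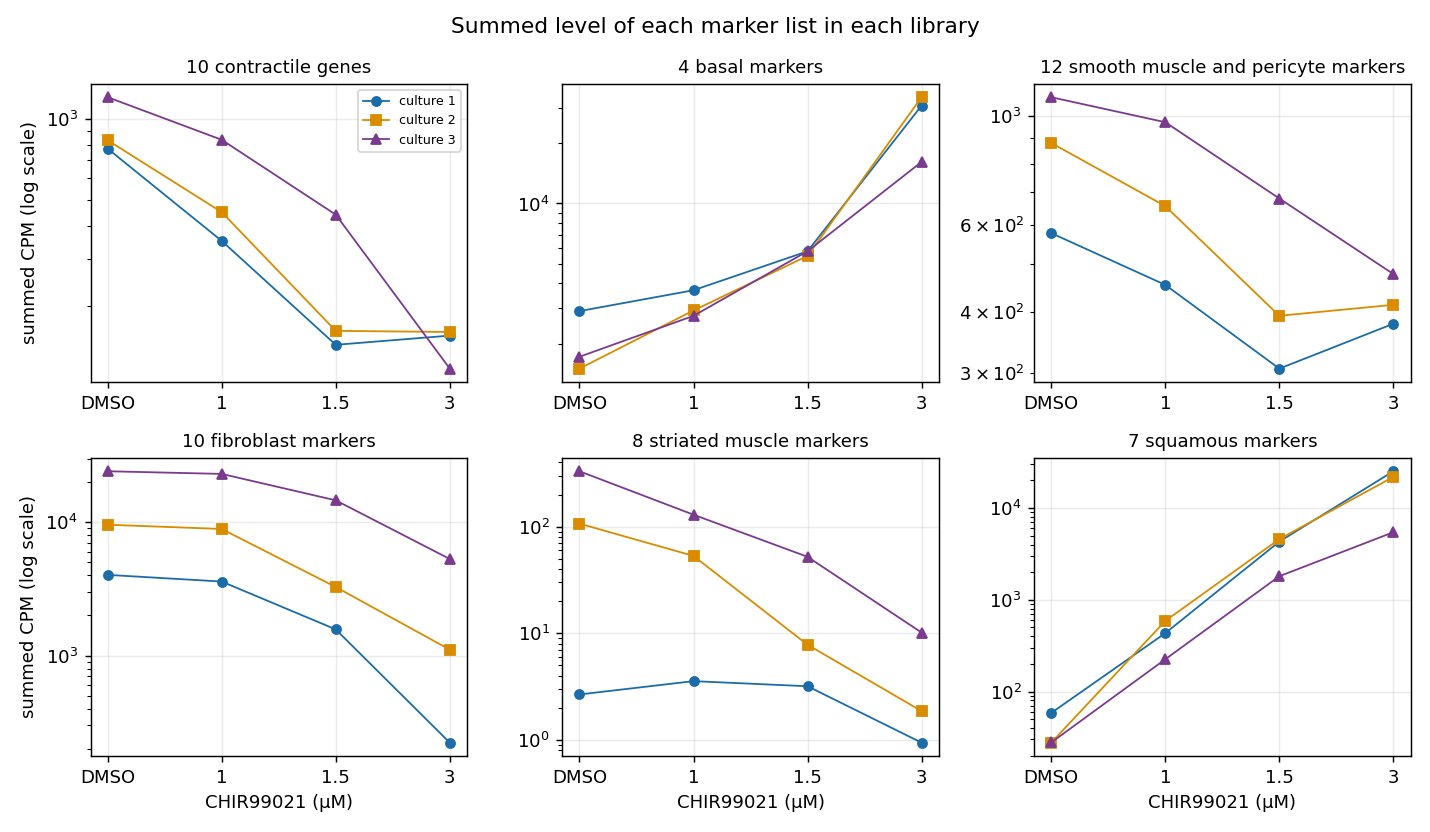
Summed CPM (log axis, scale set per panel) of the contractile genes and 5 marker lists in each of the 12 libraries, against the CHIR99021 dose at even spacing; lines join the libraries of a culture. Contractile, pericyte, fibroblast and striated muscle sums are lower at 3 µM than in DMSO in all 3 cultures, while basal and squamous sums are higher.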

How the data were processed

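RNA-seq of 12 organoid libraries was deposited by the authors as raw read counts per Ensembl gene, and tests used these counts as deposited. The submitters' processing notes name TopHat2 2.1, Bowtie 1.1.0, HTSeq and DESeq2 and the builds GRCm38 and mm10, with no role or strand setting. A deposited log2 table was not used here. Rows that name no gene numbered 0.

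Counts were filtered with edgeR's filterByExpr (15316 of 25210 genes kept), scaled by TMM and tested with edgeR 4.0.16 (R 4.3.3; glmQLFit, robust, and glmQLFTest, two-sided, 1 mean per group). P-values were adjusted by Benjamini and Hochberg over all tested genes at 0.05. Exonic lengths and overlaps came from GENCODE M21 (GRCm38), with 99.996% of 24902 shared gene identifiers on the same chromosome. No molecular identifiers are described, so reads are not independent molecules.

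Replicate numbers are animals and pair the libraries: deviations from group means correlated above 0.1 in 18 of 18 same-number pairs (0.177 to 0.840). The fit with the animal as a block was an alternative, as were DESeq2 1.42.0, 2 other scalings, 2 other filters, fits of only the 2 groups compared, and fits leaving out each library or culture. The scripts were tested on simulated data. The members and gene lists were chosen with earlier results of these data known. Genes named from a list were its 4 most abundant and its largest called increase and decrease at 3 µM, and the 3 genes most correlated with each member; 1 gene that this rule names is not reported here.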

Additional observations from a re-analysis of the deposited data

How the results depend on the processing

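At 3 µM the 8 members that fell remained called in every fit that tested them: 8 without any one library, and 7 with a filter of 5 CPM in 3 libraries, which removed Actg2. At 1 µM the count was 0 without any one library, 3 with the replicate block, 1 in DESeq2 and 1 without culture 3 in all groups. At 1.5 µM against DMSO it was 6, and 4 to 7 without one library and 2 without culture 2 in all groups. From 1 to 1.5 µM it was 2, and 1 to 4 without one library. The replicate block and DESeq2 each gave 4, and the fit of only the 2 groups compared gave 1. It was 0 without culture 1 or culture 2, but those fits called 0 of all 15479 and 15350 genes. Without culture 3 it was 6, where 810 of 15392 genes were called higher and 328 lower. From 1.5 to 3 µM it was 6, and 5 to 7 without one library. It was 3 without culture 1, where 608 of 15479 genes were called higher and 563 lower. Without culture 2 it was 1, where 196 of 15350 were called higher and 149 lower. Members differing between cultures numbered 3, and 0 to 6 without one library and 1 with no filter on low counts. Fits without a culture rest on 2 libraries per group. The replicate block changed no call of a tested member at 3 µM against DMSO.

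Of 984 fold changes of the 9 tested members under 22 alternatives, 902 kept direction and call, 42 lost the call, 33 gained it and 7 changed sign, none of them called. Without one library, Actg2 at 1 µM ran from −0.87 to 0.19, Tpm2 from 1 to 1.5 µM from −0.41 to 0.44, and Cnn1 from 1.5 to 3 µM from −2.95 to 0.76. Actg2 was positive without culture 3 in DMSO. Tpm2 from 1 to 1.5 µM went to −0.15 and −0.11 without cultures 1 and 2 at 1 µM, to −0.41 without culture 3 at 1.5 µM and to −0.0092 without culture 3 in all groups. Cnn1 from 1.5 to 3 µM went to 0.76 without culture 3 at 1.5 µM and to 0.77 without culture 3 in all groups. The cause was not tested. Depth limits Actg2, with at most 57 counts in a library, and Myocd, with at most 5.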
